A study of Mus musculus with 9 samples.

Results

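The salivary epithelial lineage transcription factors described here are 10 genes that specify or mark the secretory, ductal and progenitor cells of the gland. The set was given as symbols: Bhlha15, Xbp1 and Spdef for acinar cells, Elf5, Ascl3, Foxi1 and Tfcp2l1 for ducts, and Sox2, Sox9 and Sox10 for progenitors. All 10 were measured, each by 1 transcript cluster, among 22206 transcript clusters tested.

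The glands were submandibular salivary glands of 12-week-old female C57BL6/J mice, profiled as total RNA on Clariom S arrays. The 3 groups of 3 biological replicates were glands taken on day 14 after partial resection, glands taken on day 3 after partial resection, and glands taken on day 3 after mock surgery. All mice had surgery, and mock glands were sampled on day 3 only, so in the day 14 comparison with mock, resection and time since surgery cannot be told apart. Nor can change after resection and time since surgery be told apart between day 14 and day 3 resected glands. Values are on the deposited log2 scale and differences are log2 differences on that scale, which is not a calibrated fold change.

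A salivary gland is built from acini, clusters of cells that fold, glycosylate and export large amounts of protein, and from ducts, which modify the ions of saliva and, in rodents, store growth factors and kallikreins. Among lineage factors, bHLH and bZIP factors set up the secretory apparatus, forkhead and grainyhead factors act in ion-transporting duct cells, and SOX factors act in progenitors of the developing and injured gland. Whole glands were measured, so fewer cells of a type and less RNA per cell cannot be told apart for any gene measured.

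Day 3 resected glands had less Bhlha15 than mock glands. Day 14 resected glands had more Bhlha15, Elf5 and Foxi1 than day 3 resected glands, and none of the 10 factors passed the test between day 14 resected and mock glands. These calls were not stable: of 9 fits without 1 array, 3 kept that of Bhlha15 against mock. Between the days, 5 kept that of Bhlha15, 2 that of Elf5 and 3 that of Foxi1. Of the 10 factors, 9 had a negative difference between day 3 resected and mock glands, with a median of -0.64, while over all transcript clusters 57.0% were negative and the median was -0.06. A test counted as passed at an adjusted p under 0.05, taken over all transcript clusters. On that count 1 factor was lower and 0 were higher, beside 1.36% of all transcript clusters called lower and 4.92% called higher. All 3 day 3 resected arrays lay below all 3 mock arrays for 3 factors, beside 11.8% of all transcript clusters. With quantile normalisation the calls over all transcript clusters split into 973 higher and 452 lower, and with median centring into 1013 and 480, against 1092 and 301 as deposited.

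**Figure D1:**
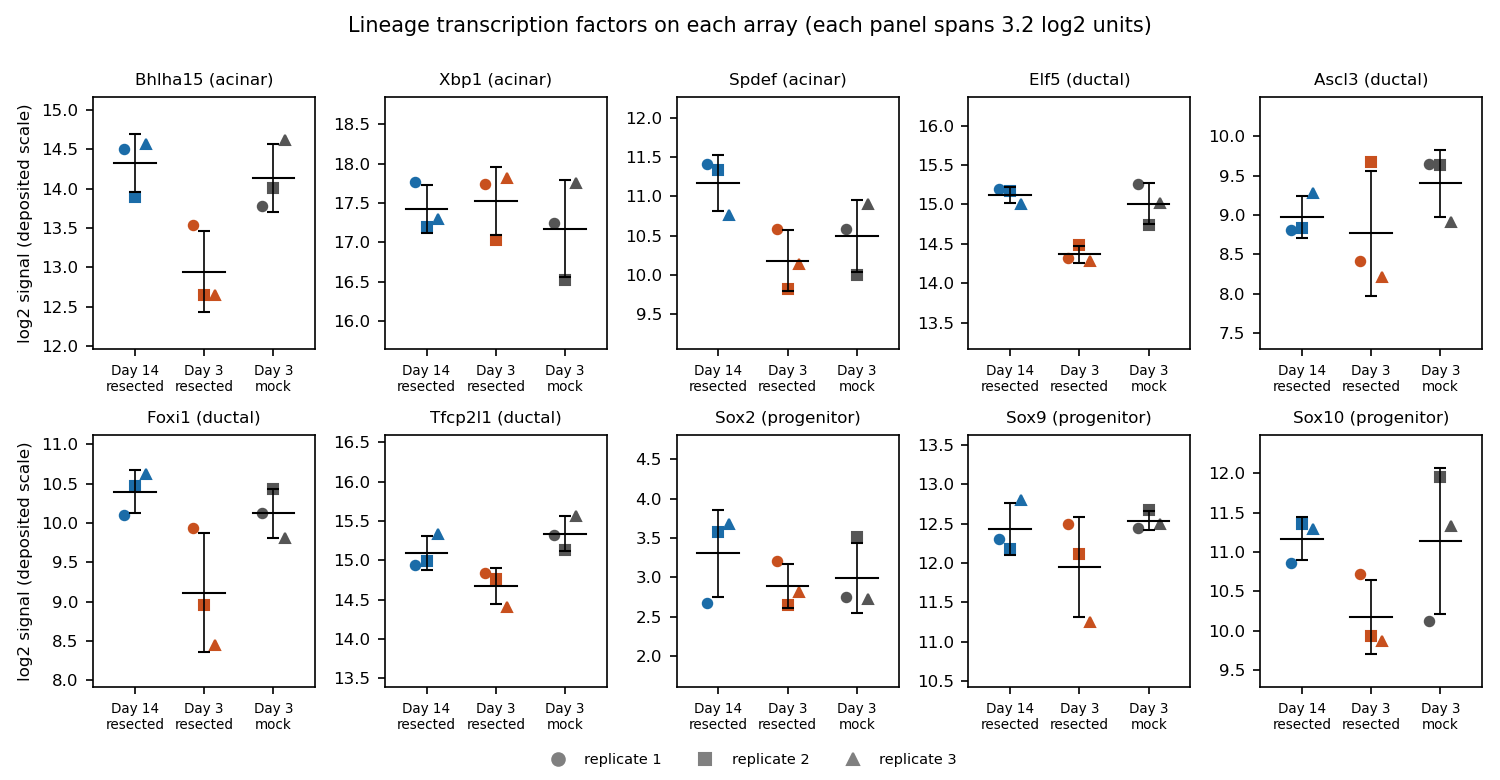
Log2 signal of each lineage factor (y axis, deposited scale) on the day 14 resected, day 3 resected and mock arrays (x axis); each point is 1 array, its shape the replicate number, the long line the group mean and the bars 1 SD (n = 3). All panels span the same number of log2 units, and for Bhlha15, Elf5 and Tfcp2l1 every day 3 resected point lies below every point of both other groups.

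Between day 14 and day 3 resected glands the signs turned. A positive difference was found for 9 of 10 factors, with a median of 0.62 beside a median of 0.06 and 56.5% positive over all transcript clusters. Of the factors, 3 were called higher and 0 lower, beside 1.4% of all transcript clusters called higher and 4.88% called lower. The day 14 arrays lay wholly above the day 3 resected arrays for 6 factors, beside 12.9% of all transcript clusters. This comparison and that of day 3 resected with mock glands share the day 3 resected arrays, so the opposite signs are not independent of each other.

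Between day 14 resected and mock glands, 7 factors had a positive and 3 a negative difference, with a median of 0.15. By limma 0 factors were called, beside 0.0991% of all transcript clusters called higher and 0.054% called lower. An unadjusted p under 0.05 was reached by 1 factor, beside 8.18% of all transcript clusters. No factor's arrays lay wholly above or wholly below the mock arrays, beside 6.03% and 6.99% of all transcript clusters. A test that missed the threshold does not show equal levels, and the 95% intervals of the differences are given with each factor.

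**Figure D2:**
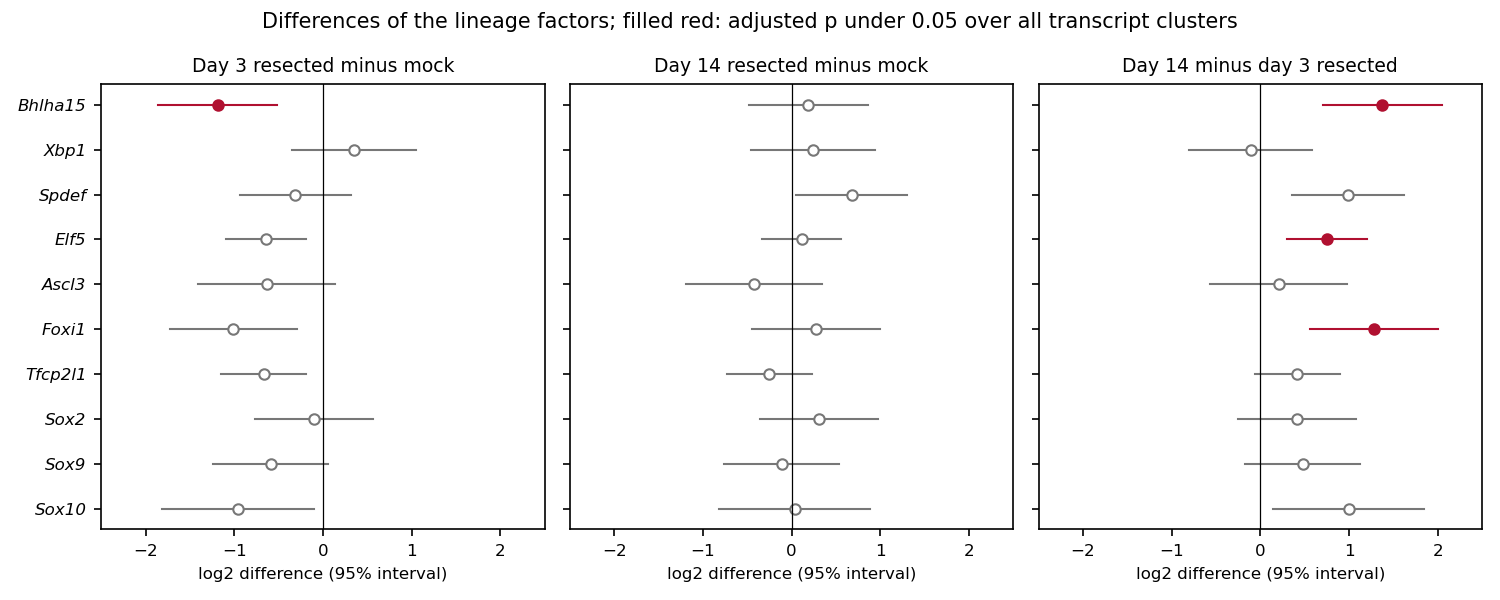
Log2 difference of each lineage factor (x axis) with its 95% interval from limma, for day 3 resected minus mock, day 14 resected minus mock and day 14 minus day 3 resected glands; filled red points have an adjusted p under 0.05 over all transcript clusters. Red points are Bhlha15 on the left at -1.19 and Bhlha15, Elf5 and Foxi1 on the right at 1.38, 0.75 and 1.28, while the middle panel holds none.

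Bhlha15, also called Mist1, is a bHLH factor of serous secretory cells that promotes granule storage and export in acinar cells. Bhlha15 had log2 levels of 14.50, 13.90 and 14.57 in day 14 resected glands, 13.54, 12.65 and 12.65 in day 3 resected glands, and 13.78, 14.01 and 14.62 in mock glands. The day 3 resected arrays were the 3 lowest of the 9 and overlapped neither other group, and the day 14 arrays lay within the mock range. Group means were 14.32 ± 0.37, 12.95 ± 0.51 and 14.13 ± 0.43 (SD, n = 3 each) in day 14 resected, day 3 resected and mock glands. Bhlha15 fell in day 3 resected against mock glands by 1.19 ± 0.31 (SE; limma adjusted p = 0.0386). It was higher in day 14 than in day 3 resected glands by 1.38 ± 0.31 (limma adjusted p = 0.0170). Day 14 resected minus mock was 0.19 ± 0.31 (95% interval -0.48 to 0.86; limma adjusted p = 0.913).

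Both Bhlha15 calls rested on few arrays. Against mock glands, the day 3 call ended without mock replicate 2 or 3 (limma adjusted p = 0.0743 and 0.134), without day 3 resected replicate 2 or 3 (0.146 and 0.161), and without day 14 resected replicate 1 or 3, which change only the shared spread (0.0577 and 0.0520). It also ended when only the compared groups were fitted (0.0697). The day 14 against day 3 call ended without day 3 resected replicate 2 or 3 (0.0804 and 0.0885) and without day 14 resected replicate 1 or 3 (0.0738 and 0.0780). Over all such fits the differences ran from -1.48 to -0.95 for day 3 resected minus mock and from 1.23 to 1.67 for day 14 minus day 3 resected glands, so the direction was the same in each.

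The promoter of Bhlha15 is shown with those of Elf5 and Foxi1, because these are the factors that were higher in day 14 than in day 3 resected glands. The sequences come from RefSeq (GRCm38.p6), run from 250 bases before the annotated start to 30 bases from it, and are written 5′ to 3′ on the gene's strand with motif matches in capitals. The Bhlha15 window is chr5:144190036-144190315 (+), the Elf5 window chr2:103411848-103412127 (+) and the Foxi1 window chr11:34208060-34208339 (-). Capitals mark ACGTG in Bhlha15 and CAGCTG in Elf5, and the Foxi1 stretch holds no match. A second Elf5 window, chr2:103423818-103424097 (+), holds no match and is not printed.
Bhlha15: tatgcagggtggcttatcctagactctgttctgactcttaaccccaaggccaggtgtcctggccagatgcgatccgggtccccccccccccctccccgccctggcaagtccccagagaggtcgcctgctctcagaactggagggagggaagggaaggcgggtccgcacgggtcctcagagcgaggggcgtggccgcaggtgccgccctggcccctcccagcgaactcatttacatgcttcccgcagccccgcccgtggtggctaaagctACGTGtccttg
Elf5: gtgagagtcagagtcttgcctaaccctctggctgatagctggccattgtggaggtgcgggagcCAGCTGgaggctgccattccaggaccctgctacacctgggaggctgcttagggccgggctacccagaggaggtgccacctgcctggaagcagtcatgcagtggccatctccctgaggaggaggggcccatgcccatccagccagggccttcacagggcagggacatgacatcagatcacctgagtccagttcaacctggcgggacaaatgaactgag
Foxi1: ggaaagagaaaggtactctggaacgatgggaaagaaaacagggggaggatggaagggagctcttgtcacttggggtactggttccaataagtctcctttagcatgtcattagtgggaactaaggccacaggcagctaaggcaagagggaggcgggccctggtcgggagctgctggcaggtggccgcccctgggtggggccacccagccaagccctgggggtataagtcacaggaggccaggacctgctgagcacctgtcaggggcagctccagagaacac
ACGTG is the core bound by bZIP factors of the XBP1 and ATF6 type, and CAGCTG is an E-box bound by bHLH factors. The ACGTG match of Bhlha15 starts 19 bases after the first transcribed base, and the CAGCTG match of Elf5 starts at position -187.

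Motifs were searched on both strands of windows from 250 bases before to 50 after each start: ACGTG, the E-boxes CAGCTG and CATATG, the SOX-type core ACAAAG, the forkhead-type core GTAAACA, the ETS-type core GGAAGT, and TATAAA. Of 32851 RefSeq windows, 19.6% held ACGTG, 16.3% CAGCTG, 3.91% CATATG, 18.7% ACAAAG, 3.65% GTAAACA, 23.8% GGAAGT and 13.6% TATAAA. Windows were matched for 8 of the 10 factors (9 windows, 2 of them of Elf5), and Sox9 and Sox10 are named only. ACGTG was also found in the Spdef window at -199 and in the Ascl3 window at -161 and -160, where the palindromic letters count on each strand and overlap. Ascl3 held 4 TATAAA matches and Tfcp2l1 held 1 at -28. ACAAAG was found in Sox2 at -206, and GGAAGT in Xbp1 at -64 and, on the opposite strand, in Spdef at 16. A match is only these letters in this window and says nothing of binding.

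Xbp1 encodes the bZIP factor whose mRNA is spliced by the stress sensor IRE1 and which expands the endoplasmic reticulum of secretory cells. Xbp1 had log2 levels of 17.76, 17.19 and 17.30 in day 14 resected glands, 17.74, 17.03 and 17.82 in day 3 resected glands, and 17.24, 16.53 and 17.76 in mock glands. The 3 groups overlapped throughout, and the lowest array was mock replicate 2. The difference of Xbp1 between day 3 resected and mock glands was 0.35 ± 0.32 (95% interval -0.34 to 1.05; limma adjusted p = 0.629). Day 14 resected minus mock was 0.24 ± 0.32 (95% interval -0.45 to 0.94; adjusted p = 0.889), and day 14 minus day 3 resected was -0.11 ± 0.32 (adjusted p = 0.901). Xbp1 was the factor with a positive difference between day 3 resected and mock glands. The transcript cluster does not separate spliced from unspliced Xbp1. All 9 Xbp1 values exceeded 16, the most a 16-bit scanner can record, but stayed below the deposited maximum of 19.93.

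Plasma cells also depend on Xbp1, and 1 of their markers, Jchain, was called between the groups on day 3. The mean log2 level of 10 plasma cell genes ran from 6.11 to 7.65 on day 14 resected arrays, from 5.76 to 6.03 on day 3 resected arrays and from 6.46 to 7.16 on mock arrays. Without Jchain, the mean of the other 9 genes ran from 5.97 to 6.82, from 5.96 to 6.16 and from 6.15 to 6.38 on these arrays, so the day 3 resected and mock ranges met. Of the 10, 8 had a negative and 2 a positive difference in day 3 resected against mock glands (median -0.38); Sdc1, named after its values were seen, had 9.26, 9.44 and 9.41 on day 3 resected and 8.08, 8.10 and 9.12 on mock arrays. In day 3 resected against mock glands 1 of the 10 fell, Jchain, the joining chain of secreted antibodies (by 6.88 ± 1.60, limma adjusted p = 0.0208). In day 14 against day 3 resected glands 2 of 10 were higher, Jchain (6.34 ± 1.60, adjusted p = 0.0324) and the B cell coactivator Pou2af1 (1.55 ± 0.43, adjusted p just under the threshold). In the 9 fits without 1 array, Jchain kept these calls in 5 and in 4, and Pou2af1 in 1. Jchain lay below the median of the negative control rows on 2 of 3 day 3 resected arrays, and Pou2af1 on 2 of 3 day 14 resected arrays and on all day 3 resected and mock arrays, so that their differences are not exact sizes. The part of these cells in the Xbp1 values was not tested.

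Spdef is an ETS factor that drives mucous and goblet cell differentiation. Spdef had log2 levels of 11.41, 11.33 and 10.77 in day 14 resected glands, 10.58, 9.82 and 10.14 in day 3 resected glands, and 10.58, 10.00 and 10.90 in mock glands. The day 14 arrays lay above all day 3 resected arrays, and replicate 3 of day 14 lay within the mock range. Means were 11.17 ± 0.35, 10.18 ± 0.38 and 10.49 ± 0.45 (SD, n = 3 each) in day 14 resected, day 3 resected and mock glands. Day 14 minus day 3 resected was 0.99 ± 0.29 (95% interval 0.36 to 1.62; limma adjusted p = 0.0660), just outside the threshold. It passed after quantile normalisation (1.11, adjusted p = 0.0438), without day 3 resected replicate 1 (1.19, 0.0433) and without mock replicate 2 (0.99, 0.0478). Day 14 resected minus mock was 0.68 ± 0.29 (95% interval 0.05 to 1.31; unadjusted p = 0.0365 and adjusted p = 0.575 by limma), and day 3 resected minus mock was -0.31 ± 0.29 (adjusted p = 0.637).

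Genes that the acinar factors are known to act on were taken as lists, together with other genes of the same functions. Of 13 Bhlha15 target and granule traffic genes, 2 fell and 0 rose in day 3 resected against mock glands (median -0.36). These were Vamp8, a SNARE of granule fusion (-1.02 ± 0.24, limma adjusted p = 0.0221), and Sytl1, a Rab27 effector (-1.29 ± 0.32, adjusted p = 0.0302). In day 14 against day 3 resected glands 1 of 13 was higher, Rab27b, a small GTPase of granule docking. Rab27b had 14.77, 14.63 and 14.31 on day 14 resected arrays, 13.07, 13.04 and 12.50 on day 3 resected arrays, and 13.46, 12.91 and 13.62 on mock arrays. Its day 14 arrays lay above all others, and day 14 minus day 3 resected was 1.70 ± 0.25 (limma adjusted p = 0.00107). That call held without any 1 array, while Vamp8 and Sytl1 each kept theirs in 5 of 9 such fits.

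Rab3d and Rab26, which are among the direct Bhlha15 targets of the list, did not pass. Rab3d, a granule GTPase, differed by -0.19 ± 0.33 between day 3 resected and mock glands, and Rab26 by -0.43 ± 0.25 (limma adjusted p = 0.832 and 0.398). These 2 were picked after their values were seen. In the same list, Atp2c2, Tmed6 and Scg5 lay below the negative control median on all 9 arrays, so they were not detectable above background.

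Of 32 Xbp1 target and ER folding genes, 1 fell and 0 rose in day 3 resected against mock glands (median -0.17). It was Herpud1, a membrane protein of ER-associated degradation, with 15.10 ± 0.05 in day 3 resected and 15.99 ± 0.29 in mock glands (SD, n = 3 each; -0.89 ± 0.24, limma adjusted p = 0.0490), called in 2 of 9 fits that left out 1 array. None of the 32 passed in the other comparisons, where the medians were -0.11 for day 14 resected minus mock and 0.08 for day 14 minus day 3 resected.

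Of 17 Spdef target and mucous genes, 0 were called in any comparison, with medians of -0.13, -0.10 and 0.10 for day 3 resected minus mock, day 14 resected minus mock and day 14 minus day 3 resected. Muc5b, Foxa3, Tff1, Tff2, Tff3, Galnt12, Bpifb2, Ern2, Clca1 and Pla2g10 lay below the negative control median on all 9 arrays. For these genes no change could be seen, and the list medians mostly describe such background rows. The largest differences were those of Dcpp3 and Smgc. Dcpp3, a secreted demilune cell and parotid protein, had 17.06, 19.71 and 14.05 on day 14 resected arrays, 16.70, 7.80 and 19.69 on day 3 resected arrays, and 6.28, 8.17 and 5.80 on mock arrays. All day 14 arrays and day 3 replicates 1 and 3 exceeded every mock array, and day 3 replicate 2 did not. Dcpp3 differed by 7.98 ± 2.25 between day 3 resected and mock glands (limma adjusted p = 0.0563). Smgc, a mucin-like product of the neonatal and female submandibular gland, differed by -1.93 ± 0.65 in the same comparison (adjusted p = 0.113).

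Of 15 measured acinar secretory genes, 2 fell and 0 rose in day 3 resected against mock glands (median -0.16). Slc12a2, the basolateral cotransporter that loads chloride for fluid secretion, had 18.78, 18.49 and 19.24 on day 14 resected arrays, 17.71, 17.98 and 17.50 on day 3 resected arrays, and 19.06, 18.78 and 18.80 on mock arrays. Its day 3 resected arrays lay below all others. The differences of Slc12a2 were -1.15 ± 0.24 for day 3 resected minus mock (limma adjusted p = 0.0108) and 1.11 ± 0.24 for day 14 minus day 3 resected (adjusted p = 0.0136), where it was the member called of the 15. Without day 3 resected replicate 3 both calls ended, and without day 14 resected replicate 3 the second of them did (adjusted p up to 0.0730). The amylase gene Amy1 fell by 1.49 ± 0.31 in day 3 resected against mock glands (adjusted p = 0.0111), but not without day 3 resected replicate 3 (adjusted p = 0.0624). Prol1, Pip and Car6, secreted acinar products, sat at the maximum on all 9 arrays, so no difference could be measured for them.

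Elf5 is an ETS factor known from luminal progenitors of the mammary gland and from salivary ducts. Elf5 had log2 levels of 15.19, 15.17 and 15.00 in day 14 resected glands, 14.32, 14.49 and 14.29 in day 3 resected glands, and 15.26, 14.74 and 15.02 in mock glands. The day 3 resected arrays were the 3 lowest and overlapped neither other group. Group means were 15.12 ± 0.10, 14.37 ± 0.11 and 15.01 ± 0.26 (SD, n = 3 each) in day 14 resected, day 3 resected and mock glands. Elf5 was higher in day 14 than in day 3 resected glands by 0.75 ± 0.21 (95% interval 0.31 to 1.20; limma adjusted p = 0.0498), at the edge of the threshold. Day 3 resected minus mock was -0.64 ± 0.21 (adjusted p = 0.0983), and day 14 resected minus mock 0.11 ± 0.21 (95% interval -0.34 to 0.56; adjusted p = 0.927).

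The Elf5 call held in 2 of 9 fits without 1 array. It ended without mock replicate 3 (limma adjusted p = 0.0596), without day 3 resected replicate 1, 2 or 3 (0.108, 0.0954 and 0.161) and without day 14 resected replicate 1, 2 or 3 (0.133, 0.134 and 0.0867), and the difference stayed between 0.72 and 0.82. It ended with robust variances (0.0527). After quantile normalisation, Elf5 also passed between day 3 resected and mock glands (-0.74, adjusted p = 0.0489).

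Foxi1 is the forkhead factor of ionocytes, which switches on proton pump and anion exchanger genes. Foxi1 had log2 levels of 10.10, 10.47 and 10.62 in day 14 resected glands, 9.93, 8.96 and 8.45 in day 3 resected glands, and 10.13, 10.43 and 9.81 in mock glands. The day 14 arrays lay above all day 3 resected arrays, and day 3 replicate 1 lay within the mock range. Group means were 10.40 ± 0.27, 9.11 ± 0.75 and 10.12 ± 0.31 (SD, n = 3 each) in day 14 resected, day 3 resected and mock glands. Foxi1 was higher in day 14 than in day 3 resected glands by 1.28 ± 0.33 (95% interval 0.56 to 2.00; limma adjusted p = 0.0379). Day 3 resected minus mock was -1.01 ± 0.33 (adjusted p = 0.107), and without day 3 resected replicate 1 it was -1.42 and passed (adjusted p = 0.0103). Day 14 resected minus mock was 0.27 ± 0.33 (95% interval -0.45 to 1.00; adjusted p = 0.880).

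The Foxi1 call between the days held in 3 of 9 fits without 1 array. It ended without mock replicate 1 (limma adjusted p = 0.0534), without day 3 resected replicate 2 or 3 (0.128 and 0.168) and without day 14 resected replicate 1, 2 or 3 (0.0606, 0.114 and 0.131), and with only the compared groups fitted (0.0580). The difference ran from 0.95 to 1.69 over the fits without 1 array. It was smallest without day 3 resected replicate 3 and largest without day 3 resected replicate 1.

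Ascl3 is a bHLH factor that marks a scattered population of duct cells in the mouse salivary gland. Ascl3 had log2 levels of 8.80, 8.84 and 9.28 in day 14 resected glands, 8.42, 9.68 and 8.21 in day 3 resected glands, and 9.65, 9.63 and 8.91 in mock glands. Day 3 replicate 2 was the highest of the 9 arrays and replicate 3 the lowest, so the day 3 group spanned the whole range. For Ascl3, day 3 resected minus mock was -0.63 ± 0.36 (95% interval -1.40 to 0.14; limma adjusted p = 0.377), day 14 resected minus mock -0.43 ± 0.36 (95% interval -1.20 to 0.34; adjusted p = 0.798) and day 14 minus day 3 resected 0.21 ± 0.36 (adjusted p = 0.818). Ascl3 lay below the 95th percentile of the negative control rows on day 3 replicates 1 and 3 and above it on the other 7 arrays. The day 3 arrays were not ordered alike for the 2 factors: Foxi1 was highest on replicate 1 and Ascl3 on replicate 2, and both were lowest on replicate 3.

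Tfcp2l1 is a grainyhead-related factor of ducts, known also from the collecting ducts of the kidney. Tfcp2l1 had log2 levels of 14.94, 15.00 and 15.34 in day 14 resected glands, 14.84, 14.76 and 14.41 in day 3 resected glands, and 15.33, 15.13 and 15.57 in mock glands. The day 3 resected arrays were the 3 lowest, and the day 14 and mock arrays overlapped. Day 3 resected minus mock was -0.67 ± 0.22 (95% interval -1.15 to -0.19; limma adjusted p = 0.108), and after quantile normalisation -0.79 (adjusted p = 0.0496). Day 14 minus day 3 resected was 0.42 ± 0.22 (adjusted p = 0.341), and day 14 resected minus mock was -0.25 ± 0.22 (95% interval -0.73 to 0.23; adjusted p = 0.811).

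Ionocyte and proton pump genes, of which not all are known targets of FOXI1, were examined with the ductal factors. Of 16 ionocyte and proton pump genes, 3 fell and 0 rose in day 3 resected against mock glands (median -0.43). Atp6v1c2, a proton pump subunit, fell by 1.40 ± 0.27 (limma adjusted p = 0.00687), the subunit Atp6v1g3 by 1.12 ± 0.24 (0.0132) and the secreted protein Coch by 1.19 ± 0.30 (0.0312). Their levels were low: Atp6v1c2 averaged 5.85 ± 0.08 in day 3 resected and 7.25 ± 0.49 in mock glands (SD, n = 3 each), under the 95th percentile of the negative control rows. Atp6v1g3 lay below their median on 3 of 3 and Coch on 2 of 3 day 3 resected arrays, so that the sizes of their differences are not exact. In day 14 against day 3 resected glands 2 of 16 were higher (median 0.38), the chloride channel Cftr (0.82 ± 0.22, adjusted p = 0.0424) and the receptor Asgr1 (1.19 ± 0.22, 0.00489). None of the 16 passed between day 14 resected and mock glands (median -0.17). Atp6v0a4, Slc26a4 and Slc4a9 lay below the negative control median on all 9 arrays, so they were not detectable above background. Atp6v1b1 and Slc4a1 were not called in any comparison. The calls of Atp6v1c2 and Asgr1 held without any 1 array, while Atp6v1g3, Coch and Cftr kept theirs in 7, 5 and 2 of 9 such fits. Asgr1 too lay under the 95th percentile of the negative control rows on all day 3 resected and mock arrays. Its values there were 6.96 to 7.40 and 7.64 to 8.04.

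Of 21 ductal epithelial genes, 6 fell and 1 rose in day 3 resected against mock glands (median -0.44). Scnn1g, a subunit of the epithelial sodium channel, fell by 1.46 ± 0.27 (limma adjusted p = 0.00521), the growth factor Egf by 2.94 ± 0.59 (0.00917), and the kallikreins Klk1b9 and Klk1b16 by 1.39 ± 0.33 and 2.54 ± 0.60 (0.0236 for each). Klk1b9 and Klk1b16 belong to a family of near-identical genes whose probes may not separate them. Krt19, a simple epithelial keratin named here after its value was seen, rose by 1.04 ± 0.27 (adjusted p = 0.0366). It lay below the negative control median on 1 of 3 day 3 resected arrays and on all mock and day 14 resected arrays, so this is not an exact size. In day 14 against day 3 resected glands 4 of 21 were higher and 0 lower (median 0.60): Scnn1g by 1.42 ± 0.27, Egf by 2.83 ± 0.59, Klk1b16 by 2.69 ± 0.60 and the glutathione transferase Gstt1 by 1.09 ± 0.25, with adjusted p from 0.00595 to 0.0194. Gstt1 had 7.03, 7.35 and 7.09 on day 14 resected arrays and 6.17, 6.08 and 5.96 on day 3 resected arrays. On mock arrays it had 6.15, 5.98 and 5.24, so its day 3 arrays were not below mock and its day 14 arrays lay above it. All its values were under the 95th percentile of the negative control rows. The Scnn1g calls held without any 1 array. Of 9 such fits, 8 and 7 kept the Egf calls of these comparisons, 5 and 6 those of Klk1b16, 6 that of Klk1b9, 2 that of Krt19 and 5 that of Gstt1. None of the 21 passed between day 14 resected and mock glands (median -0.00).

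**Figure D3:**
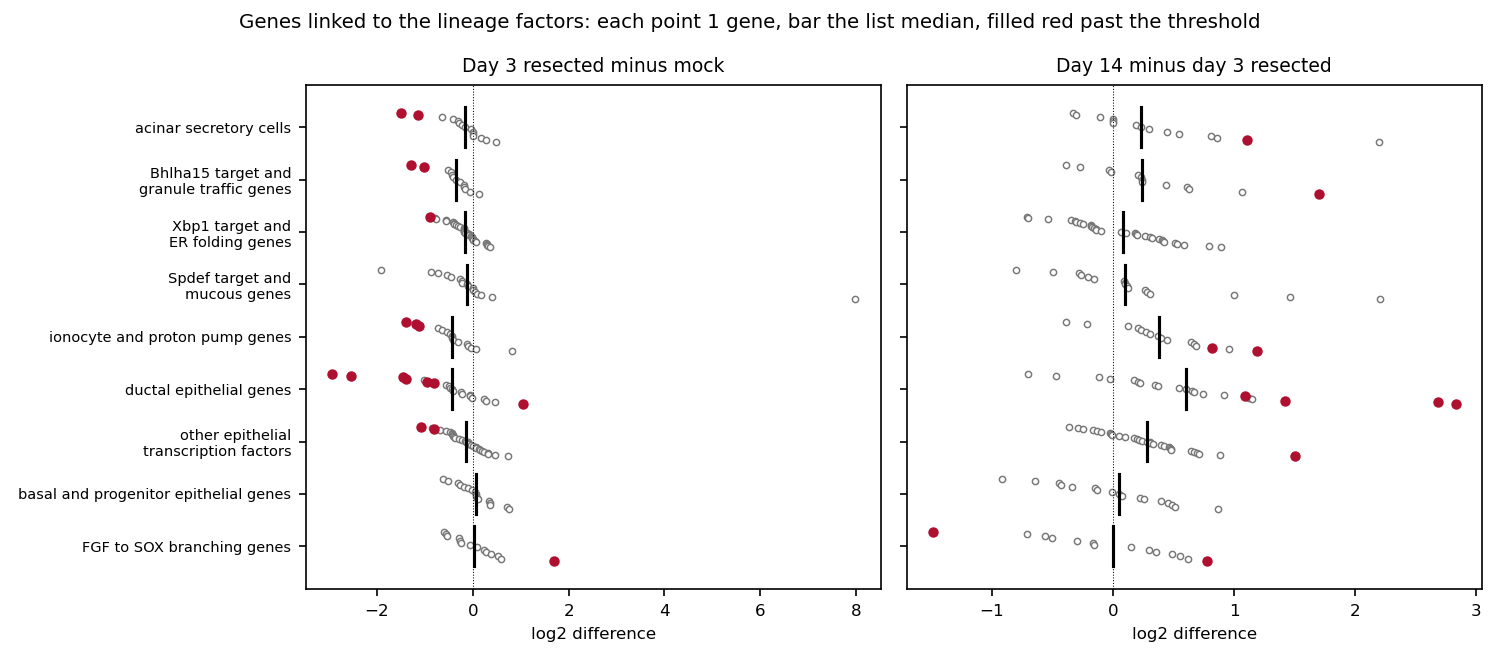
Log2 difference (x axis) of every measured gene of 9 lists linked to the lineage factors, for day 3 resected minus mock and for day 14 minus day 3 resected glands; each point is 1 gene, the black bar the list median, and filled red points have an adjusted p under 0.05 over all transcript clusters. In the left panel the red points lie below 0 except Krt19 at 1.04 and Etv5 at 1.70, and in the right panel they lie above 0 except Etv5 at -1.49.

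Sox9 marks and maintains progenitors at the tips of the branching gland and is also a master factor of cartilage. Sox9 had log2 levels of 12.31, 12.18 and 12.80 in day 14 resected glands, 12.49, 12.11 and 11.25 in day 3 resected glands, and 12.44, 12.68 and 12.50 in mock glands. The groups overlapped, and day 3 replicate 3 was the lowest array. For Sox9, day 3 resected minus mock was -0.59 ± 0.30 (95% interval -1.24 to 0.06; limma adjusted p = 0.324), day 14 resected minus mock -0.11 ± 0.30 (95% interval -0.76 to 0.54; adjusted p = 0.954) and day 14 minus day 3 resected 0.48 ± 0.30 (adjusted p = 0.438). Of 12 fibroblast and cartilage genes, 4 rose in day 3 resected against mock glands, among them the collagens Col1a1 (5.12 ± 0.58), Col3a1 (4.69 ± 0.42) and Col1a2 (4.14 ± 0.42). The cartilage proteoglycan Acan, below the negative control median on 8 of 9 arrays, differed by -0.41 ± 0.31 and Col2a1 by -0.20 ± 0.25. The last pair was named after the values were seen. The mean level of the 12 genes was 7.63 to 7.99, 8.36 to 8.97 and 7.30 to 7.60 on day 14 resected, day 3 resected and mock arrays, and 3 of 12 were lower in day 14 than in day 3 resected glands. The part of these cells in the Sox9 values was not tested.

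Sox10 acts downstream of FGF signalling in salivary progenitors and is also made by myoepithelial and Schwann cells. Sox10 had log2 levels of 10.86, 11.36 and 11.30 in day 14 resected glands, 10.72, 9.93 and 9.87 in day 3 resected glands, and 10.13, 11.95 and 11.33 in mock glands. The day 14 arrays lay above all day 3 resected arrays, and mock replicate 1 lay among the day 3 resected values. Group means were 11.17 ± 0.27, 10.18 ± 0.47 and 11.14 ± 0.93 (SD, n = 3 each) in day 14 resected, day 3 resected and mock glands. For Sox10, day 3 resected minus mock was -0.96 ± 0.39 (95% interval -1.82 to -0.11; limma adjusted p = 0.208). Without mock replicate 1 it was -1.47 and passed (adjusted p = 0.0197), and the fits without 1 array ran from -1.47 to -0.55. Day 14 minus day 3 resected was 0.99 ± 0.39 (adjusted p = 0.186) and day 14 resected minus mock 0.03 ± 0.39 (95% interval -0.82 to 0.89; adjusted p = 0.991).

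Markers of the other cells that make Sox10 are given beside it. The mean level of 12 Schwann cell and glial genes was 5.995 to 6.12 on day 14 resected arrays, 5.84 to 5.93 on day 3 resected arrays and 5.69 to 5.92 on mock arrays, and 0 of 12 were called in day 3 resected against mock glands (median 0.10). The neurotrophin receptor Ngfr was the 1 of 12 higher in day 14 than in day 3 resected glands (1.33 ± 0.29, limma adjusted p = 0.0141; kept in 7 of 9 fits without 1 array). The mean of 10 myoepithelial genes was 7.77 to 8.44, 8.15 to 8.56 and 8.37 to 8.64 on day 14 resected, day 3 resected and mock arrays. Of these, smooth muscle myosin Myh11 fell in day 3 resected against mock glands by 1.07 ± 0.26 (limma adjusted p = 0.0294, kept in 5 of 9 such fits). The list as a whole was split there, with 6 negative and 4 positive differences (median -0.08). The positive ones were those of Acta2, Cnn1, Actg2 and Krt14. In the other comparisons 0 of 10 were called. The part of these cells in the Sox10 values was not tested.

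Sox2 is a factor of pluripotent and foregut cells and of salivary acinar progenitors. Sox2 had log2 levels of 2.67, 3.58 and 3.67 in day 14 resected glands, 3.21, 2.66 and 2.82 in day 3 resected glands, and 2.75, 3.51 and 2.73 in mock glands. All 9 values lay below the median of the negative control rows on the same array (4.41 to 4.77), so Sox2 was not detectable above background and its differences are given as values only. They were -0.10 ± 0.31 for day 3 resected minus mock, 0.31 ± 0.31 for day 14 resected minus mock (95% interval -0.36 to 0.98) and 0.41 ± 0.31 for day 14 minus day 3 resected (limma adjusted p = 0.905, 0.842 and 0.529).

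The FGF pathway that leads to SOX factors in branching was read as 14 genes. In day 3 resected against mock glands 1 rose and 0 fell (median 0.02). Etv5, an ETS factor induced by FGF receptor signalling, had 8.28, 8.15 and 9.09 on day 14 resected arrays, 10.24, 10.09 and 9.67 on day 3 resected arrays, and 8.21, 7.85 and 8.84 on mock arrays. The day 3 resected arrays were above all others, and the difference from mock was 1.70 ± 0.31 (limma adjusted p = 0.00479), called without any 1 array. In day 14 against day 3 resected glands Etv5 was lower by 1.49 ± 0.31 (-1.49, adjusted p = 0.0110) and the receptor Fgfr2 higher by 0.78 ± 0.21 (adjusted p = 0.0486). Without 1 array, Etv5 kept that call in 7 of 9 fits and Fgfr2 in 1 of 9.

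Of 17 basal and progenitor epithelial genes, 0 were called in any comparison, with medians of 0.07 for day 3 resected minus mock, 0.08 for day 14 resected minus mock and 0.05 for day 14 minus day 3 resected. The largest differences in day 3 resected against mock glands were those of the stem cell receptor Lgr5 (0.76 ± 0.26, limma adjusted p = 0.114) and the basal keratin Krt5 (0.71 ± 0.33, adjusted p = 0.267). Lgr5 lay below the negative control median on all 9 arrays, as Sox2 did, so it was not detectable above background. Among 31 other epithelial transcription factors, 2 fell and 0 rose in day 3 resected against mock glands (median -0.14). These were the nuclear receptor Esrrg (-1.09 ± 0.29, adjusted p = 0.0428) and the paired-box factor Pax9 (-0.82 ± 0.22, adjusted p = 0.0490), and without 1 array these calls held in 2 of 9 fits for Esrrg and in 0 of 9 for Pax9. Esrrg was also higher in day 14 than in day 3 resected glands, by 1.51 ± 0.29 (adjusted p = 0.00641), the 1 such call of the 31, and this call held without any 1 array.

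**Figure D4:**
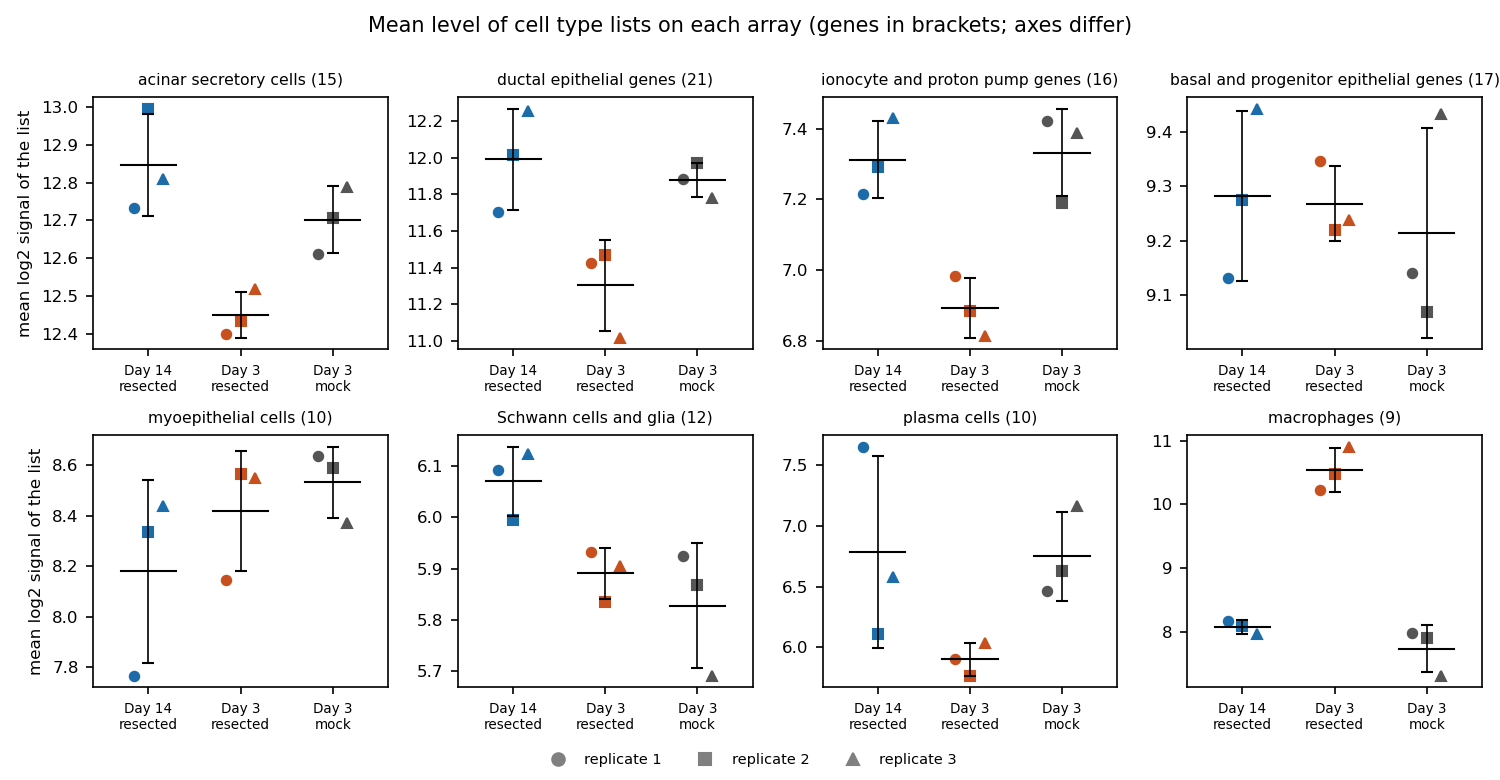
Mean log2 signal of 8 gene lists (y axis; the number of genes is in brackets and the axes differ) on the day 14 resected, day 3 resected and mock arrays (x axis); points are arrays, long lines group means and bars 1 SD (n = 3). The acinar, ductal and ionocyte lists were lowest on the day 3 resected arrays, the macrophage list highest there, and the basal list overlapped across all groups.

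Other cell types differed between the groups at the same time. On day 3 resected arrays the mean of 9 macrophage genes was 10.22 to 10.90, against 7.32 to 7.99 on mock arrays, and 8 of 9 rose. The mean of 15 acinar secretory genes was 12.40 to 12.52 on day 3 resected arrays against 12.61 to 12.79 on mock arrays, and that of 21 ductal genes 11.02 to 11.47 against 11.78 to 11.97. Of the 15 acinar genes, 3 had a positive difference from mock (Aqp5, Ano1 and Bpifa2), and 3 sat at the maximum on all 9 arrays. Cst10 lay below the negative control median on all 9 arrays and Smr3a on 8. Of the 21 ductal genes, 17 had a negative and 4 a positive difference. All 13 cell cycle genes rose in day 3 resected against mock glands (median 3.32), and 0 of 8 endothelial and 0 of 10 adipocyte and skeletal muscle genes were called. On day 14 resected arrays the macrophage mean was 7.96 to 8.18. The part of this change of cell types in the lower factors on day 3 was not tested.

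The genes with values most like those of a called factor were ranked by the root mean square (RMS) difference of log2 values, each centred on its mean over the 9 arrays. For Bhlha15, whose own SD over the arrays was 0.75, they were Tshz2 (RMS 0.253), Phlda1 (0.271) and Pick1 (0.288). For Elf5 (SD 0.38) they were Pcmtd1 (0.116), Gramd1c (0.126) and Smim14 (0.129). For Foxi1 (SD 0.72) they were Olfr191 (0.166), Hpcal1 (0.236) and Prpmp5 (0.271). Olfr191 and Prpmp5 averaged 4.27 and 4.42 in day 3 resected glands, below the negative control medians of those arrays (4.65 to 4.77), so both were near background. Tshz2, a zinc finger factor, differed by -1.19 between day 3 resected and mock glands and by 1.16 between day 14 and day 3 resected glands. The ranking covers all named genes, and a small distance over 9 arrays is a description.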

How the data were processed

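The deposited log2 values were made by the authors with Transcriptome Analysis Console 4.0 and RMA, per the labels and the submitters' processing notes; RMA subtracts background, brings arrays to a common distribution and summarises probes. The genome build is not given in the sources used here, nor is the annotation version. Of 28846 rows, 6640 controls were left out and 22206 transcript clusters tested, 19572 of them with 1 gene symbol from the platform's probe annotation. There are no detection calls, so 5222 negative control rows describe background; they are single rows, unlike the summarised transcript clusters. Median log2 values were 5.09 to 5.24 over the 9 arrays, arrays of a group correlated at 0.985 to 0.990 across transcript clusters, and the number of arrays limits the precision.

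limma 3.58.1 in R 4.3.3 fitted 1 mean per group to all 9 arrays (6 residual and 6.63 prior degrees of freedom), with two-sided p-values adjusted by Benjamini and Hochberg over all transcript clusters and a threshold of 0.05. The fit was tested on simulated data. The members and all gene lists were chosen with earlier results of these data known. Named genes were the 10 factors, up to 4 genes per list and comparison with the lowest adjusted p past the threshold (or, where none passed, up to 2 with the largest difference), and the 3 nearest profiles of each called factor. A list gene used the transcript cluster with the highest mean. Alternatives were quantile normalisation, median centring, leaving out the dimmest 30%, the replicate number as a block, only the compared groups, robust variances, and leaving out each array. For list genes these were added after seeing the data.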

Additional observations from a re-analysis of the deposited data

Results flagged for a closer look

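In the comparison of day 14 with day 3 resected glands the mock arrays cancel, so it equals the change in the difference from the same day 3 mock glands. With no mock glands on day 14, change after resection and time since surgery cannot be told apart in it. By the limma test of this comparison, 3 of the 10 lineage factors and 38 genes of the 17 other lists differed. Beside this, 1.4% of all transcript clusters were called higher and 4.88% lower. The factors were Bhlha15 (1.38 ± 0.31, adjusted p = 0.0170), Foxi1 (1.28 ± 0.33, adjusted p = 0.0379) and Elf5 (0.75 ± 0.21, adjusted p = 0.0498), each higher on all 3 day 14 arrays than on all 3 day 3 resected arrays. The same order of arrays was seen for Spdef, Tfcp2l1 and Sox10, which were not called, and for 12.9% of all transcript clusters.

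Among acinar and granule genes, Rab27b differed by 1.70 and Slc12a2 by 1.11. Among ionocyte genes, Asgr1 differed by 1.19 and Cftr by 0.82. Among ductal genes, Egf differed by 2.83, Klk1b16 by 2.69, Scnn1g by 1.42 and Gstt1 by 1.09. Esrrg, a nuclear receptor, differed by 1.51. In the FGF list, Fgfr2 differed by 0.78 and Etv5 by -1.49. Of the plasma cell and glial markers, Jchain differed by 6.34, Pou2af1 by 1.55 and Ngfr by 1.33.

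The fibroblast, macrophage and cell cycle genes that passed were all lower on day 14. The collagens Col1a1, Col1a2 and Col3a1 differed by -3.92, -3.20 and -2.98. Among macrophage genes, Itgam differed by -3.71, Trem2 by -3.44, Lyz2 by -3.41, Fcgr1 by -3.17, Adgre1 by -2.20, Mrc1 by -2.09, Csf1r by -1.99 and Cd14 by -1.10. Among genes of mitosis and proliferation, Mki67 differed by -6.09, Cdk1 by -5.52, Ccna2 by -4.97, Bub1 by -4.46, Top2a by -4.33, Ccnb2 by -4.24, Aurkb by -3.55 and Birc5 by -2.67. Among genes of DNA replication, Mcm6 differed by -5.00, Mcm5 by -4.46, Pcna by -3.99, Mcm3 by -3.41 and Mcm2 by -2.63. Cdk1 and Mcm5 lay below the negative control median on all 3 day 14 resected arrays, so their sizes are not exact. Of the 38 list genes, 26 kept the call without any 1 array, and no sign changed in these fits.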

How the results depend on the processing

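Over the 6 alternatives that left out no array of the compared groups, 169 results of the factors stayed on their side of the threshold with their direction, 3 passed it, 5 no longer did and 0 changed direction. Over the fits without 1 array, 232 kept both, 4 passed, 23 no longer did and 11 changed direction. The differences that changed direction ran from -0.26 to 0.15 for Sox2 (day 3 resected minus mock). For day 14 resected minus mock they ran from -0.47 to 0.44 for Sox10, -0.080 to 0.53 for Xbp1, -0.021 to 0.24 for Elf5 and -0.30 to 0.014 for Sox9. For day 14 minus day 3 resected they ran from -0.36 to 0.034 for Xbp1 and -0.074 to 0.66 for Ascl3. None of these was called.

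Without 1 array, calls over all transcript clusters numbered 850 to 1307 for day 3 resected minus mock (1393 with all arrays; 850 without day 3 resected replicate 3), 20 to 58 for day 14 resected minus mock (34; 58 without mock replicate 3, 20 and 22 without day 14 resected replicate 2 and 3) and 874 to 1429 for day 14 minus day 3 resected (1394; 874 without day 3 resected replicate 3). Beyond the smaller number of arrays, the cause was not tested. Of the 45 and 38 list genes called in day 3 resected minus mock and in day 14 minus day 3 resected glands, 27 and 26 stayed called in all such fits.

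Same-numbered arrays of different groups deviated together at correlations of -0.09 to 0.05 (9 pairs, others -0.06 to 0.13), so no pairing by number was seen. Weak correlations cannot exclude that the samples were paired. With the replicate block the counts were 1283, 26 and 1297, and Elf5 (adjusted p = 0.0821) and Foxi1 (0.0503) were no longer called between the days. Median centring moved the median of all differences by at most -0.07. Leaving out the dimmest 30% removed Sox2. Signal over background limits what Sox2, and Ascl3 on day 3 resected replicates 1 and 3, can show.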
